A study of Mus musculus with 3 samples.

Results

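Guanylate-binding proteins (GBPs) are large GTPases that interferons induce in macrophages, where they gather on vacuoles that hold pathogens and on bacteria in the cytosol. GBPs act in defense against intracellular pathogens and in the activation of inflammasomes. In the mouse their genes lie in a cluster on chromosome 3 and another on chromosome 5. The genes described here were chosen by name, as every probe of the array whose gene name was 1 of Gbp2 to Gbp11. All 10 names were found, among 33597 gene names measured on all arrays, and they had 13 probes.

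BMDMs are macrophages grown with M-CSF from bone marrow, here of C57BL/6J mice. The arrays compare 3 treatments of 20 h each. CpG, a DNA that TLR9 recognizes, was given alone, IFN-γ was combined with αIL-10R, and Triple joined all of these agents. αIL-10R, named IL-10RB in the sample labels, is a blocking antibody to the IL-10 receptor. Each condition had 1 array, so no difference between conditions has a replicate check and none was tested. No array of unstimulated BMDMs was used here, and no array had IFN-γ without αIL-10R, so that the effects of these agents cannot be told apart.

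Values are the processed signal of the scanner software, an intensity from which background had been subtracted. A difference is that of log2 signals, each taken relative to the 75th percentile of its array. Spots of the same probe within an array gave a technical SD of 0.13 (log2) for a difference between single spots, which does not include differences between cultures. Each of the 13 GBP probes had 1 spot on each array, and none was marked as an outlier. In bulk samples such as these, fewer cells of a type and less RNA per cell cannot be told apart. Signals of different GBP genes come from different probes and are not ranked against each other, and the summed signals of marker genes only describe each list.

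The cells carried the markers of macrophages. All 8 macrophage markers measured were well above background on each array, the probe with the highest signal being that of Tyrobp with CpG (199464) and in Triple (170344) and that of Csf1r with IFN-γ + αIL-10R (230482). The summed signal of these probes was 810236, 790560, and 692615 for CpG, IFN-γ + αIL-10R, and Triple, and sums below are in the same order. Single markers moved within this sum. With CpG, Cd14 (9.84-fold) and Itgam (2.51-fold) were higher and Mertk (2.48-fold) and Fcgr1 (2.08-fold) lower than with IFN-γ + αIL-10R, in Triple Cd14 was 16.8-fold higher and Cd68 2.25-fold lower than with IFN-γ + αIL-10R, and from CpG to Triple Mertk rose 4.05-fold. None of the 3 erythroid markers was well above background on any array. Of the 6 T cell markers 3 were (sums 2624, 2999, and 2791, led by Cd4), while Cd3d, Cd3g, and Cd8a were not. Of the 3 NK cell markers Prf1 was (sums 232, 226, and 211), while Ncr1 and Klrb1c were not.

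Some markers of other cells moved with the conditions as well. The 5 B cell markers summed to 885, 278, and 184, most of it from Cd79b, while Ms4a1 and Pax5 were not well above background on any array. The 7 markers of neutrophils and their precursors summed to 3844, 9448, and 4873, led by Elane with CpG and by Ly6g on the other arrays, with 5, 4, and 4 of them well above background and Mpo and Ngp on none. These genes did not move together, as Ly6g had signals of 555, 7699, and 2658 but Elane 2839, 1615, and 1539 and S100a8 297, 55.7, and 517, so the sum does not follow the whole list. Of the 5 dendritic cell markers 2, 3, and 4 were well above background, Flt3 on none, and their sums of 36439, 36268, and 32835 came mostly from Siglech. The sums hide that 3 of the 4 detected on some array were more than 2-fold higher in Triple than on either other array, although normexp left 1 of these calls over IFN-γ + αIL-10R and 2 over CpG, and the mean of all probes 2 over IFN-γ + αIL-10R. These were Ccr7 (319, 225, and 2892), Zbtb46 (25.1, 36.3, and 133), and Xcr1 (6.35, 6.80, and 60.7), where the first signal of Zbtb46 and the first 2 of Xcr1 were not well above background. Of the 4 fibroblast markers 3, 2, and 3 were well above background (sums 539, 326, and 481, led by Col1a2), and Pdgfra was not. Among them Col3a1 was at least 2.24-fold higher in Triple than with IFN-γ + αIL-10R, a call lost under normexp (log2 0.48). The part of such cells in the GBP results was not tested.

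GBP transcripts were low with CpG alone and high on both arrays with IFN-γ. All 10 members were more than 2-fold lower with CpG than with IFN-γ + αIL-10R, a call that 5.84% of the 18280 genes detected on at least 1 of these arrays received, and 0 were higher, compared with 5.06% of those genes. The median log2 difference of the members was −5.36, which corresponds to a signal 41.0-fold lower with CpG but was −4.66 with the mean of all probes, and the median over the 15894 genes detected everywhere was −0.0017. In Triple all 10 members were more than 2-fold higher than with CpG, compared with 7.47% of 18335 genes, and 0 were lower, compared with 8.34%. The median was 5.56 for the members, or 4.96 under normexp background correction, and −0.05 for the genes detected everywhere. These comparisons share the CpG array, and each shares another array with the comparison of Triple and IFN-γ + αIL-10R. Every member was well above background on all 3 arrays, so that its folds are measured on both sides.

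**Figure D1:**
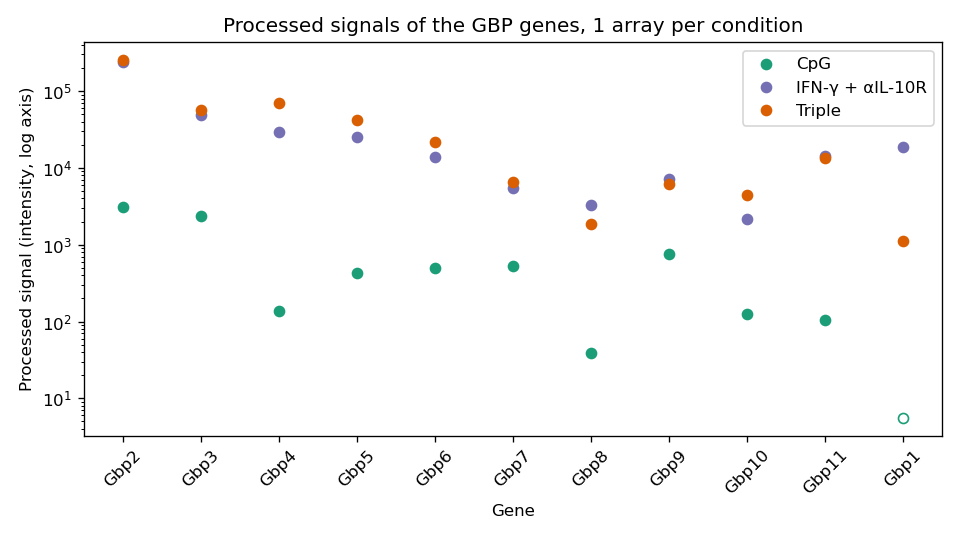
Processed signal (intensity, log axis) of each GBP gene, Gbp1 included, on the arrays for CpG, IFN-γ + αIL-10R, and Triple, 1 point per array, with an open point where the signal was not well above background. For Gbp2 to Gbp11 the CpG point lies below both others, whereas Gbp1 in Triple (1127) lies far below its IFN-γ + αIL-10R point (18472).

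Adding CpG to IFN-γ + αIL-10R was followed by differences of either sign. In Triple 2 of the 10 members, Gbp4 and Gbp10, were more than 2-fold higher than for IFN-γ + αIL-10R, compared with 6.57% of 18063 genes, and 0 were more than 2-fold lower, compared with 9.31%. Under spike-in scaling Gbp4 alone passed the threshold, as Gbp10 had a log2 difference of 0.96. The median log2 difference was 0.27 for the members and −0.04 for the genes detected everywhere, and the members ranged from −0.79 for Gbp8 to 1.30 for Gbp4. The difference was positive for 7 members and negative for 3, but that of Gbp2 was negative under spike-in scaling and that of Gbp11 positive under median scaling, with the percentile of all probes, and in the authors' table. For Gbp2, Gbp9, and Gbp11 it was smaller than 2 technical SD (0.25). The median was 0.27 for the 4 members on chromosome 3, which ranged from 0.10 to 0.80, and 0.31 for the 6 on chromosome 5.

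Gbp2, Gbp3, Gbp5, and Gbp7 lie in the chromosome 3 cluster, whose deletion in mice is known to impair resistance to Toxoplasma. Gbp2 is a prenylated GBP that is recruited to the vacuole of this parasite. Its probe (NM_010260, chromosome 3 from 142300719 to 142300778 in the array's mm9 annotation) gave processed signals of 3111 (CpG), 239515 (IFN-γ + αIL-10R), and 252036 (Triple). The signals with IFN-γ were close together, with a log2 difference of 0.10 that was −0.03 under spike-in scaling, and the CpG signal was 78.3-fold lower than with IFN-γ + αIL-10R. Gbp3 (NM_018734) had signals of 2337, 48435, and 57092 in the same order, with a log2 difference of 0.27 between Triple and IFN-γ + αIL-10R.

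Gbp5, which is linked to the assembly of the NLRP3 inflammasome, had the largest difference between Triple and IFN-γ + αIL-10R of the chromosome 3 members. Its brighter probe (NM_153564) gave signals of 427 (CpG), 24996 (IFN-γ + αIL-10R), and 42499 (Triple), a log2 difference of 0.80 for Triple over IFN-γ + αIL-10R and of −5.89 for CpG. The other Gbp5 probe (AF487898) gave 196, 409, and 676. The probes were alike for Triple over IFN-γ + αIL-10R (0.76 for the second) and unlike for CpG over IFN-γ + αIL-10R, where the second gave −1.08. Gbp7 (NM_145545) had signals of 528, 5523, and 6554, with a log2 difference of 0.28 for Triple. Its other probe (AY496685) was not well above background on any array.

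The promoters shown are those of the members with an entry in the RefSeq promoter table, all of them on chromosome 3. That of Gbp2b is added because it lies in the same cluster and differed from these members in Triple. Members of both clusters had lower signals with CpG than on the other arrays. The bases were taken from RefSeq on GRCm38.p6, + strand, and end before the first annotated transcript of the gene, which leaves 222 bases for Gbp3, 219 for Gbp2b, and 250 for the others. They are chr3:142620413-142620662 for Gbp2, chr3:142559794-142560015 for Gbp3, chr3:142496684-142496933 for Gbp5, chr3:142530086-142530335 for Gbp7, and chr3:142594597-142594815 for Gbp2b, the current name of the array's Gbp1. Capitals mark matches, on either strand, to GAAANNGAA (an ISRE, the element of interferon-stimulated genes), TTCNNNGAA (a GAS, the gamma-activated site), GGANNTTCC (a κB site), or TGANTCA (an AP-1 site).
Gbp2: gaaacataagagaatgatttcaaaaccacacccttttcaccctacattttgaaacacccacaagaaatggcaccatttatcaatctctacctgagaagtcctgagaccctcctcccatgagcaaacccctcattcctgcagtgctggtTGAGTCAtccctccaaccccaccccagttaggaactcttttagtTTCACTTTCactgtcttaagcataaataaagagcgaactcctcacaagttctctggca
Gbp3: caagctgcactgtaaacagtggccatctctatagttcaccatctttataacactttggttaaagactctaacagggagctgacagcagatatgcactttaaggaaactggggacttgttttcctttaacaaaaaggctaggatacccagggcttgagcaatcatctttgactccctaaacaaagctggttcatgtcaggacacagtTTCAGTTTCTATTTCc
Gbp5: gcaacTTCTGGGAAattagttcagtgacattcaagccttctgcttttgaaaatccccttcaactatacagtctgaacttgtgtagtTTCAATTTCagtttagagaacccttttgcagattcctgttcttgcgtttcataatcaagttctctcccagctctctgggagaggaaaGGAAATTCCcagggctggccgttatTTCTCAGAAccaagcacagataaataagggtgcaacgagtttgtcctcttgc
Gbp7: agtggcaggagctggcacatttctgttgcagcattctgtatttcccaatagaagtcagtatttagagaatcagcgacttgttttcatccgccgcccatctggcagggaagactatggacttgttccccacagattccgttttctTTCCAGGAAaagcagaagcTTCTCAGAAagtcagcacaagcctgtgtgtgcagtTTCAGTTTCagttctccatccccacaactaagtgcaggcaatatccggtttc
Gbp2b: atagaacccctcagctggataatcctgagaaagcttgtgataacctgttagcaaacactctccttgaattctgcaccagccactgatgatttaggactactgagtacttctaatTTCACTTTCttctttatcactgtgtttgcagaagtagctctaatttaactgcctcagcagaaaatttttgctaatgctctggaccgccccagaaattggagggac

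The ISRE letters were found in the 250 bases before the start of all 4 members in the table, Gbp2, Gbp3, Gbp5, and Gbp7, and in 7.13% of the 32851 promoters of the table. For Gbp3 this was its first start, and none of the motifs was found before its second start. The GAS letters were found for Gbp5 and Gbp7 and in 7.02% of all promoters, the κB letters for Gbp5 and in 3.59%, and the AP-1 letters for Gbp2 and in 6.75%. Gbp2b had the ISRE letters and none of the others. Counted from the start in the promoter table, which for Gbp3 and Gbp2b lies beyond the printed bases, the ISRE letters began 58 bases before it for Gbp2, 44 and 38 for Gbp3 (overlapping matches), 164 for Gbp5, 52 for Gbp7, and 136 for Gbp2b. A match describes the letters and is no measurement of binding. Gbp4, Gbp6, Gbp8, Gbp9, Gbp10, and Gbp11 had no entry in the promoter table.

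Gbp4, Gbp6, Gbp8, Gbp9, Gbp10, and Gbp11 lie in the chromosome 5 cluster, and their log2 differences of Triple over IFN-γ + αIL-10R ranged from −0.79 to 1.30. The Gbp4 probe (NM_001256005, chromosome 5 from 105544852 to 105544911, mm9) gave processed signals of 136 (CpG), 29413 (IFN-γ + αIL-10R), and 70865 (Triple). It had the largest difference of the members in each comparison, being 220-fold lower with CpG and 2.46-fold higher in Triple than with IFN-γ + αIL-10R, and 542-fold higher in Triple than with CpG. Gbp8 (NM_029509) went the other way in Triple. Its signals were 38.6, 3258, and 1840, and the log2 difference of Triple over IFN-γ + αIL-10R was −0.79, short of the 2-fold threshold. The CpG signal was the least precise of the members, with an error of 16.5% given by the software, compared with 10.6% for Gbp4.

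The probes of Gbp6 and Gbp10 cannot be fully separated. The Gbp10 probe and the brighter Gbp6 probe each list RefSeq accessions of both genes, so that either signal can include RNA of the other gene. The Gbp10 probe gave 126 (CpG), 2132 (IFN-γ + αIL-10R), and 4466 (Triple), a signal 2.14-fold higher in Triple than for IFN-γ + αIL-10R that fell short of 2-fold under spike-in scaling. The brighter Gbp6 probe gave 504, 14040, and 21662, and the other, which lists Gbp6 alone, gave 206, 6543, and 11824. Their log2 differences for Triple were 0.66 and 0.88, both under the threshold. Without the shared probes, a choice made after the data were seen, Gbp4 was the 1 member more than 2-fold higher in Triple.

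Gbp9 (NM_172777) had signals of 765 (CpG), 7088 (IFN-γ + αIL-10R), and 6266 (Triple), being 9.42-fold lower with CpG than for IFN-γ + αIL-10R. Gbp11 (NM_001039647) had signals of 106, 14126, and 13393, and was 136-fold lower with CpG than with IFN-γ + αIL-10R (log2 −7.09, but −6.42 under normexp).

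**Figure D2:**
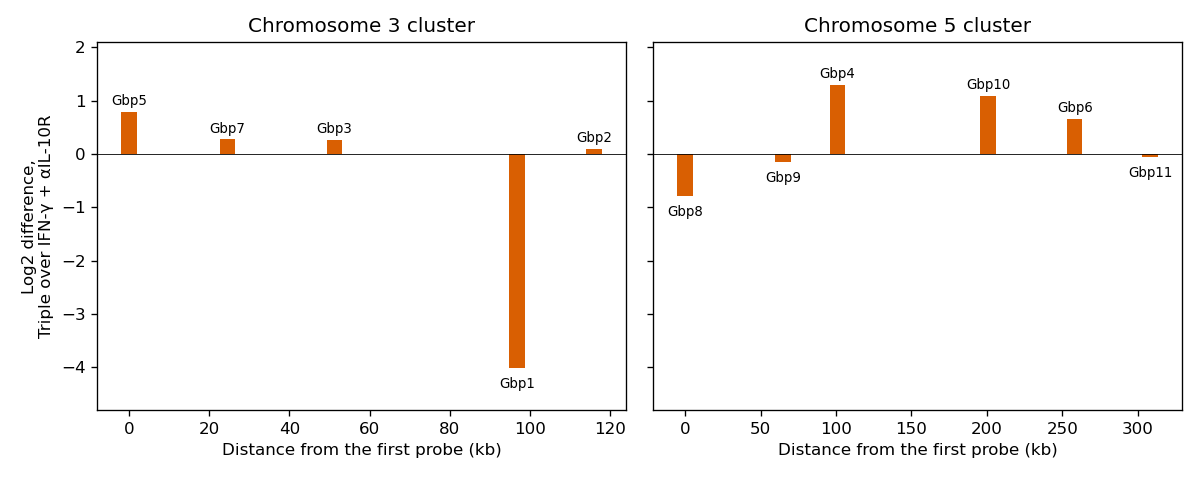
Log2 difference of Triple over IFN-γ + αIL-10R (bars) against the distance of each probe from the first probe of its cluster in kb. Gbp1 (−4.00) stands between Gbp3 (0.27) and Gbp2 (0.10) on chromosome 3, Gbp2 was negative under spike-in scaling, and Gbp11 was positive under median scaling, with the percentile of all probes, and in the authors' table.

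Gbp1 is the GBP gene on the array that was not among the 10 members. Its brighter probe (NM_010259) was not well above background with CpG, at 5.56, compared with 18472 (IFN-γ + αIL-10R) and 1127 (Triple). The log2 difference of Triple over IFN-γ + αIL-10R was −4.00, a 16.0-fold lower signal, and the second probe gave −3.99. Over CpG the signal was at least 49.3-fold higher in Triple and at least 791-fold higher with IFN-γ + αIL-10R, where the CpG signal was raised to the lowest signal well above background. These bounds depend on the background correction, as with normexp the log2 differences were 3.82 for Triple over CpG and −7.72 for CpG over IFN-γ + αIL-10R, in the same directions. Both probes lie on chromosome 3 between those of Gbp3 and Gbp2, whose log2 differences of Triple over IFN-γ + αIL-10R were 0.27 and 0.10, the latter negative under spike-in scaling.

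**Figure D3:**
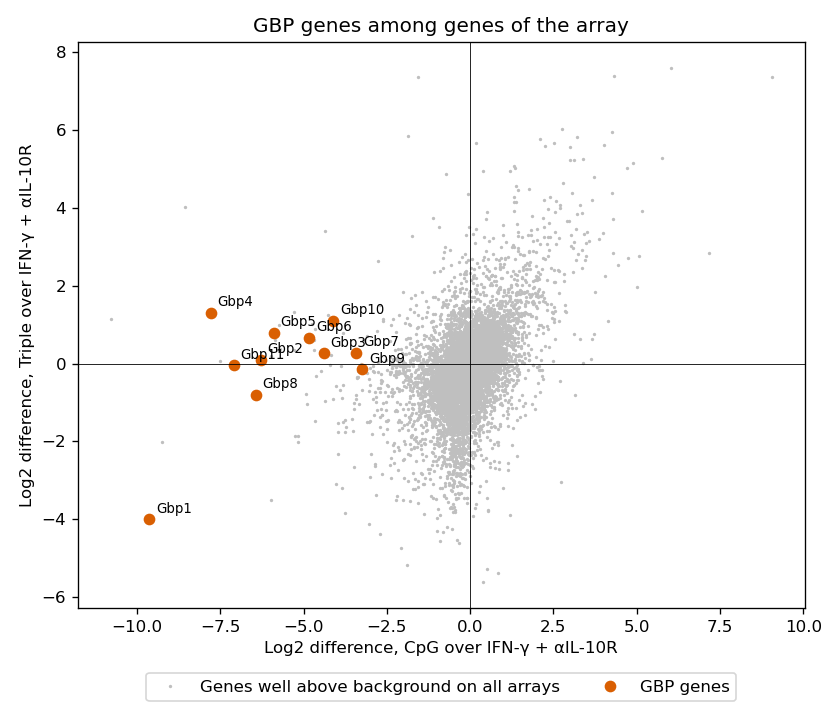
Log2 difference of CpG over IFN-γ + αIL-10R (horizontal axis) and of Triple over IFN-γ + αIL-10R (vertical axis) for genes well above background on all arrays (grey) and the GBP genes with Gbp1 (orange). The axes share the IFN-γ + αIL-10R array. The 10 members lie between −7.78 and −3.24 on the horizontal axis and between −0.79 and 1.30 on the vertical axis, and Gbp1, whose horizontal value is a bound, lies apart from them.

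Genes with the most similar differences were sought among 10489 genes with a gene symbol and detected on all 3 arrays, by the Euclidean distance of the 2 log2 differences over IFN-γ + αIL-10R from the members' medians. The nearest was Socs1, an inhibitor of JAK signaling, at a distance of 0.11, with signals of 1059 (CpG), 40651 (IFN-γ + αIL-10R), and 50881 (Triple). Tgtp1 (0.60), Iigp1 (0.61), Batf2 (0.68), Cxcl10 (0.80), Slamf8 (0.94), Fam3b (0.95), Cd86 (1.00), Fam26f (1.03), and Tgtp2 (1.18) followed. The members themselves lay between 0.66 and 2.63 from their medians. Tgtp1, Iigp1, and Tgtp2 encode immunity-related GTPases.

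For the gene lists, a value given beside a gene is its log2 difference of Triple over IFN-γ + αIL-10R unless another comparison or a fold is stated. The immunity-related GTPases (IRGs) are a second family of IFN-γ-induced GTPases that act at pathogen vacuoles. Of 12 IRG genes measured, 11 were detected, all of them more than 2-fold lower with CpG than with IFN-γ + αIL-10R (median −3.23) and more than 2-fold higher in Triple than with CpG (median 2.67). In Triple over IFN-γ + αIL-10R 0 passed the threshold in either direction. Among the largest differences there were −0.69 for Gm12250, 0.60 for F830016B08Rik, 0.60 for Tgtp1, and −0.33 for Gm5431. The median was −0.10, and it was positive under median scaling, with the percentile of all probes, and in the authors' table. Mx1, Mx2, and Gvin1, other interferon-induced GTPases, had differences of 0.10, 0.25, and −0.05 in the same comparison, with a median of 0.10 that was negative under spike-in scaling. With CpG 2 of these 3 were more than 2-fold lower than with IFN-γ + αIL-10R, and all 3 were more than 2-fold higher in Triple than with CpG, a count of 2 under spike-in scaling, without scaling, and relative to Actb, where Mx2 fell short.

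Of 12 genes of the IFN-γ receptor and its signaling, Jak2 was more than 2-fold higher in Triple than with IFN-γ + αIL-10R, with signals of 3150 (CpG), 4952 (IFN-γ + αIL-10R), and 11633 (Triple), and 0 were lower. Ifngr1 and Ifngr2, the chains of the receptor, differed by −0.70 and 0.63, and Socs1 by 0.35. The list's median was 0.09 and was negative under spike-in scaling and relative to Actb. With CpG 5 of the 12 (4 without scaling, under median scaling, with the percentile of all probes, and in the authors' table) were more than 2-fold lower than with IFN-γ + αIL-10R, among them Irf1 (−3.88 in this comparison), a transcription factor of GBP induction. Of 13 other IFN-γ targets, 3 were more than 2-fold higher in Triple than with IFN-γ + αIL-10R and 1 was lower. These were Ubd (5.20), Cxcl9 (4.03), Ido1 (at least 6.73-fold), and Ciita (3.99-fold lower), and the list's median was 0.37. The counts depend on the setting, with Cxcl10 and Serping1 passing as well (5 higher) under median scaling, with the percentile or the mean of all probes, and in the authors' table, Serping1 alone (4 higher) under quantile scaling, and H2-Aa and H2-Eb1 (3 lower) under spike-in scaling, of which H2-Eb1 also passed relative to Actb (2 lower). With CpG all 12 of those detected there were more than 2-fold lower than with IFN-γ + αIL-10R (median −2.74), and under normexp 10 were (median −2.09).

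Of 9 genes of ATG8 conjugation, which directs GBPs to vacuoles, 0 passed the threshold in any comparison, except Atg16l1 for Triple over CpG under median scaling, and the largest difference in Triple over IFN-γ + αIL-10R was 0.85 for Atg16l1, followed by −0.33 for Atg7, 0.27 for Atg5, and 0.26 for Gabarapl1. The median was 0.13 and was negative under spike-in scaling. Of 5 genes of prenylation, which anchors some GBPs to membranes, 0 passed it either, with 0.50 for Pggt1b, −0.33 for Icmt, 0.23 for Fntb, −0.18 for Zmpste24, and 0.04 for Fnta. The median was 0.04 and was negative under spike-in scaling, relative to Actb, and with the mean of all probes. Of 8 inflammasome genes, 2 were more than 2-fold higher in Triple than with IFN-γ + αIL-10R, Il1b (at least 1153-fold) and Nlrp3 (1.17, or 0.98 under normexp, below the threshold), and 0 were lower. Casp4, the mouse caspase-11 gene, differed by 0.69 and Pycard by −0.52, and the median was 0.44. With CpG 1 of the 8 was higher and 2 were lower than with IFN-γ + αIL-10R (median −0.74).

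The lists of other responses had other patterns. Of 14 type I interferon genes, 1 was higher in Triple than with IFN-γ + αIL-10R (Ifnb1, at least 6.64-fold) and 1 lower (Ifit3, −1.43), with a median of −0.19, and Cmpk2 and Usp18 differed by −0.83 and 0.67. With CpG 8 of 13 were lower than with IFN-γ + αIL-10R and 0 higher (median −1.23). Of 12 TLR and NF-κB targets, 11 were higher and 0 lower, with a median of 3.73 (4.52 without the filter and lower limit), among them Il6 (at least 930-fold), Il12b (at least 316-fold), Nos2 (7.37), and Ptgs2 (5.85), and with CpG 5 of 11 (4 under normexp, and 6 with Tnf under most other scalings) were higher and 3 lower than with IFN-γ + αIL-10R. Of 7 IL-10 receptor targets, 3 were higher and 1 lower with CpG than with IFN-γ + αIL-10R. In Triple 3 were higher and 0 lower than with CpG. Both Triple and IFN-γ + αIL-10R had the receptor blocked, and CpG alone did not. The median for Triple over IFN-γ + αIL-10R was 0.93. It was past 2-fold with the percentile of all probes (1.04), under median scaling, and in the authors' table. In those settings 4 were higher, and in the main setting 3. These were Il10, with signals of 1271 for IFN-γ + αIL-10R and 9957 in Triple, Socs3 (2.71), and Bcl3 (1.92), while Nfil3 (0.93), Sbno2 (0.59), Il10ra (−0.46), and Il4ra (−0.99) did not pass the threshold, but Il4ra was past it under spike-in scaling (−1.12), without scaling, and relative to Actb. Of 7 reference genes 0 passed it, with −0.72 for Hprt, −0.19 for Tbp, 0.18 for Ywhaz, −0.10 for Rplp0, 0.09 for Actb, and 0.03 for Gapdh among them. Their median was 0.03 and was negative under quantile and spike-in scaling and relative to Actb.

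**Figure D4:**
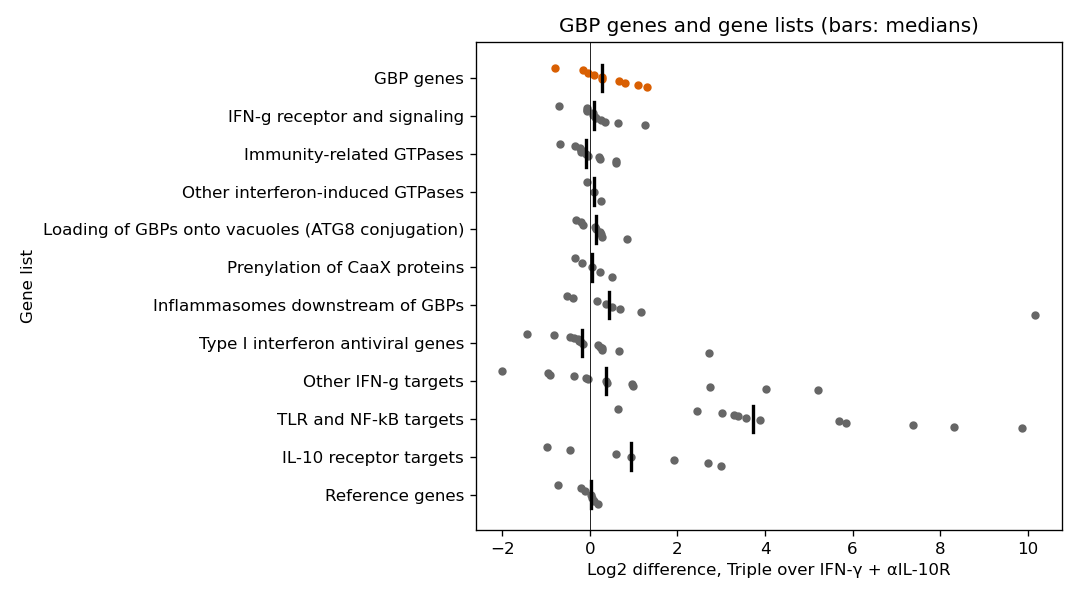
Log2 difference of Triple over IFN-γ + αIL-10R for each detected gene (points) of the 10 GBP members and the gene lists, with medians as bars, where genes dim on either array are drawn at their bound. The medians were 0.27 for the members, −0.10 for the IRGs, which was positive under median scaling, with the percentile of all probes, and in the authors' table, and 3.73 for the TLR and NF-κB targets.

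**Figure D5:**
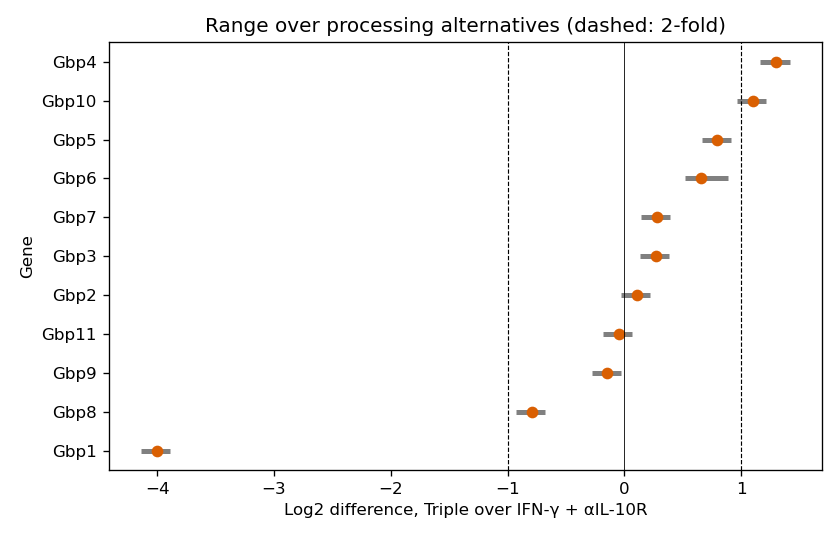
Log2 difference of Triple over IFN-γ + αIL-10R for each GBP gene in the main setting (points) and its range over the processing alternatives (bars), with dashed lines at 2-fold. Gbp4 ranged from 1.17 to 1.41, Gbp10 from 0.96 to 1.21, Gbp2 from −0.03 to 0.22, and Gbp11 from −0.18 to 0.07.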

How the data were processed

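RNA of 3 BMDM samples was labeled in 1 colour and hybridized to Agilent arrays on 1 slide with 1 scan time. The authors deposited processed signals of Agilent Feature Extraction 10.10.1.1, an intensity on a linear scale after background subtraction and detrending, in which dim spots have a surrogate value. A deposited log2 table of these arrays equalled the log2 of those signals less a constant for each array (as signals, 368 on the CpG array, 373 on that for IFN-γ + αIL-10R, and 338 on that for Triple), with column medians of −4.26, −4.38, and −4.27. How the constants were chosen is not given in the sources used here.

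Of 59305 spots, 46.0%, 44.8%, and 44.4% were well above background, and outlier spots (3.04%, 3.78%, and 3.33%) were left out. Spots of a probe were averaged as log2 and scaled to the array's 75th percentile among 21233 probes detected on every array, since 44.2% of probes were detected on average. The probe with the highest mean stood for its gene. Signals below the detection mark were set to the lowest detected signal of the array, which makes a fold a bound. A call was more than 2-fold with the brighter array well above background. Named genes were all members, Gbp1, each list of up to 8 genes in full and otherwise its 4 largest differences of Triple over IFN-γ + αIL-10R with those needed to explain it, and the 10 nearest genes. The members, lists, and rule were chosen with earlier results of these data known. Irf1 and the single markers named were picked after their values were seen. Some genes of the lists are not reported here by name.

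Several steps were settled after the data were seen. Outlier marks of the local background were used beside those of the spot because this gave the outlier shares of the earlier results. A first version counted more genes lower in Triple than the earlier results, and the search for the cause led to 2 changes. More than 0.5 of a probe's spots had to be well above background, because a tied probe had set the lower limit in Triple, and probes were chosen by their mean before that limit was applied, as had been planned. Match with the earlier counts is therefore no independent check. Accession-like, predicted, clone, and all-capital names were left out of the nearest genes when the code was written.

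The alternatives were normexp with an offset of 50 (R 4.3.3 with limma 3.58.1), scaling by spike-ins (5 of 10 probes), median, quantiles, or not at all, the percentile of all probes, the authors' table, other treatments of dim, outlier, and multiple probes, thresholds of 1.5-fold and 3-fold, and differences relative to Actb. Python 3.11.15, numpy 2.4.6, and pandas 2.3.3 were used, and the code was tested on simulated arrays. The number of arrays limits the precision. A planned comparison of GBP proteins was not run.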

Additional observations from a re-analysis of the deposited data

How the results depend on the processing

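No paired analysis was possible because the conditions had 1 array each, and for the same reason no replicate could be left out. Log2 values are called moved beyond the technical SD of 0.13, and counts beyond 1.5 times. Unless stated, no cause was tested.

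The differences between Gbp1 signals with CpG and on the other arrays are bounds. They are not counted where both arrays must be well above background. Apart from this, of 25 differences of Gbp1 to Gbp11 past 2-fold, 24 stayed past it in the same direction under each of the alternatives run for them. The exception was Gbp10 for Triple over IFN-γ + αIL-10R, at 0.96 under spike-in scaling. In that comparison 2 members were more than 2-fold higher, 1 under spike-in scaling, and with thresholds of 1.5-fold and 3-fold 4 and 0 were higher, while the count of lower members was 0 and, at 1.5-fold, 1. The members' median of 0.27 was 0.14 under spike-in scaling. For CpG over IFN-γ + αIL-10R the median of −5.36 was −4.84 under normexp and −4.66 with the mean of all probes, and for Triple over CpG the median of 5.56 was 4.96 and 5.42. Single GBP genes moved by over 1.5 times in these 2 comparisons under normexp (Gbp8 to −5.02 and 4.27, Gbp10 to −3.48 and 4.57, Gbp11 to −6.42 and 6.41, and the bounds of Gbp1 to −7.72 and 3.82) and with the mean of all probes (Gbp5 to −3.49 and 4.27, Gbp7 to −1.80 and 1.95), as did Gbp1 without the lower limit (−11.72 and 7.72), and no direction changed. Without the probes that list both Gbp6 and Gbp10, chosen after seeing the data, these medians were −5.89 and 5.90 and 1 member was higher in Triple than for IFN-γ + αIL-10R, as Gbp10 then had no probe.

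Outlier marks of the spot alone, and counting tied probes as detected, were also added after seeing the data and moved none of these member results. Over all genes, counting ties raised the number lower in Triple from 1681 to 1948 over IFN-γ + αIL-10R and from 1529 to 1879 over CpG, and the narrower outlier marks gave 1745 and 1593. Counts of genes higher and lower for Triple over IFN-γ + αIL-10R, 1187 and 1681, were 2522 and 3088 without the filter and lower limit, 2410 and 3143 at 1.5-fold, 620 and 822 at 3-fold, and 806 and 1100 under normexp. For CpG over IFN-γ + αIL-10R the counts 925 and 1068 became 2369 and 2502, 2049 and 2347, 421 and 515, and 554 and 708 under the same settings. For Triple over CpG, 1370 and 1529 became 2767 and 3022, 2619 and 3017, 706 and 701, and 941 and 916. Scaling moved the balance of the counts. Those for Triple over IFN-γ + αIL-10R were 1002 and 2027 under spike-in scaling and 1410 and 1455 with the percentile of all probes, and those for Triple over CpG, with more lower than higher genes in the main setting, had more higher genes at 3-fold, under normexp, and under median scaling (1488 and 1377), with the percentile of all probes (1468 and 1403), and in the authors' table (1469 and 1396).

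The median of all detected genes for Triple over IFN-γ + αIL-10R shifted by 0.11 with the percentile of all probes, median scaling, and the authors' table, and by −0.13 under spike-in scaling. In the gene lists, differences given as "at least" are not counted where both arrays must be well above background, which lowers those counts.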
